A study of Homo sapiens with 95 samples.

Results

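The comparison described here set every library from cells exposed to NNK against every library from cells exposed to the solvent, across all genotypes of one airway cell line. It comprised 24 samples labelled NNK and 24 labelled DMSO, 48 of the 95 samples analysed, chosen by treatment label alone. The cells were AALE, an immortalized human bronchial epithelial line. It had been made into 8 lines: CRISPR knockouts of FAT1 and of CDKN2A with their GFP control (a Cas9-EGFP plasmid that carried no guide RNA), and overexpression of NRF2 (the gene NFE2L2), FGFR1, NRG1 and PIK3CA with their control HCRED (an empty vector that expresses HcRed). Each line had 3 samples per treatment, at 490 µM NNK or in DMSO alone. The remaining samples were given 173 µM benzo[a]pyrene (BaP, 24 samples) or 24 µg/ml cigarette smoke condensate (CSC, 23 samples) and are used below only where NNK was tested against them. The length of the exposure is not given in the sources used here.

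NNK, 4-(methylnitrosamino)-1-(3-pyridyl)-1-butanone, is a nitrosamine made from nicotine when tobacco is cured and smoked. It is not itself reactive: cytochrome P450 enzymes hydroxylate it to short-lived intermediates that methylate or pyridyloxobutylate DNA, while carbonyl reductases convert it to the alcohol NNAL, which is glucuronidated and excreted. MGMT removes methyl groups from guanine, and base and nucleotide excision repair act on other adducts. Planar aromatic compounds in tobacco smoke, such as BaP, act through another route: they bind the aryl hydrocarbon receptor (AhR), which switches on CYP1A1, CYP1B1 and its own repressor AHRR.

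Counted reads per library ran from 694898 to 1528287 in DMSO and from 338978 to 1625237 in NNK, and 3 NNK libraries (1 each of GFP, HCRED and FGFR1) had fewer than 500000. A count of 3 reads, taken here as the floor of detection, corresponded to 1.85 to 8.85 CPM (counts scaled to a common library total) in NNK libraries and 1.96 to 4.32 CPM in DMSO libraries, and covers counting error only. Basal airway epithelial markers were present throughout (summed level 6910 to 12100 CPM in DMSO and 7490 to 14200 CPM in NNK), whereas ciliated and secretory markers summed to at most 16.8 CPM in any of these libraries. Markers of other lineages summed to 21.6 to 56.6 CPM in DMSO and 35.9 to 72.3 CPM in NNK. Of these 16 genes, CD3E and INS had 0 reads in all 48 libraries. A mean count above 1 was found for 6, and 2 were higher in NNK by the test described below, also when corrected for GC content. In DMSO, FAT1 was at 120 ± 9.9 CPM in its knockout and 411 ± 34 in GFP, CDKN2A at 41.1 ± 4.8 and 86 ± 11, and NFE2L2, FGFR1, NRG1 and PIK3CA were at 1661 ± 106, 1026 ± 51, 6733 ± 75 and 561 ± 51 CPM in their own lines against 217 ± 16, 43.4 ± 12, 18.8 ± 7.2 and 87.2 ± 7.9 CPM in HCRED (SD, n = 3), as their labels say. Within each line and treatment the 3 libraries differed by more than sampling noise, so none was counted as a repeat of another. The study describes them as biological replicates of cells plated in wells, and the p-values measure the spread between these samples of 1 cell line.

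Counts were tested with limma on voom-transformed values, with line as a covariate, over 14387 genes whose mean count exceeded 1. The effect is given as a log2 fold change, NNK minus DMSO, with its standard error (SE), and levels as CPM scaled by the TMM factors. At a Benjamini-Hochberg adjusted p below 0.05, 7438 genes were called (51.7% of those tested), 3729 higher in NNK (25.9%) and 3709 lower (25.8%). Most of these differences were small. Past 2-fold there were 126 genes (0.876%), 95 higher (0.66%) and 31 lower (0.215%). Where the mean count was 10 or more, 19 rose past 2-fold (0.189% of 10030) and 6 fell past 2-fold (0.0598%), and 24 of these 25 are described below.

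The log2 fold changes followed the GC content of the genes. Across 13882 genes with a known exon sequence, the rank correlation of log2 fold change with exon GC content was 0.757, and it was 0.832 across the 9950 genes whose mean count was 10 or more. These are correlations across genes, which share the same 48 libraries and are not independent replicates. In the tenth of genes with the lowest GC content (median 37.1%) the median log2 fold change was -0.28, 73.8% of the genes were called lower and 0.72% higher. In the tenth with the highest GC content (median 63.4%) the median was 0.50, 78.3% were called higher and 0.216% lower. Exon length mattered less, with a rank correlation of -0.13.

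The same shift was present in each library. The GC contrast, the mean log2 CPM of the 20% of tested genes richest in GC minus that of the 20% poorest in GC, ran from -1.86 to -1.19 in the DMSO libraries (mean -1.46 ± 0.149, SD, n = 24). It ran from -1.16 to -0.490 in the NNK libraries (mean -0.858 ± 0.146, SD, n = 24), so the groups did not overlap. The difference of 0.602 had a permutation p of 1e-05 (2-sided, labels permuted within lines), the smallest that 100000 resamples can give. This contrast was chosen with earlier results known, in which fold changes followed GC content, so its p is no independent test of that pattern. The groups were separate in all 8 lines, with differences from 0.447 in NRG1 to 0.822 in GFP. The contrast was also -0.874 ± 0.192 (SD, n = 24) in BaP and -0.861 ± 0.113 (SD, n = 23) in CSC. The lowest BaP library (-1.23) lay within the DMSO range. The libraries were barcoded and sequenced as a pool, and DMSO libraries had more counted reads in the median than NNK libraries; with log2 depth as a further covariate 6656 genes were called, and the part of library preparation in the GC shift was not tested.

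To show what GC-rich and GC-poor meant here, 120 bases of coding-strand sequence are given from an internal exon of FASN (fatty acid synthase), which rose, and of DEK (a chromatin protein), which fell. Both are from GRCh37, the build used by the authors, and capitals mark G and C. The FASN stretch (exon 9, chr17:80049270-80049389, minus strand) holds 72.5% G and C, and the DEK stretch (exon 7, chr6:18249917-18250036, minus strand) far fewer; over all exons the genes have 65.2% and 37.9%.
FASN: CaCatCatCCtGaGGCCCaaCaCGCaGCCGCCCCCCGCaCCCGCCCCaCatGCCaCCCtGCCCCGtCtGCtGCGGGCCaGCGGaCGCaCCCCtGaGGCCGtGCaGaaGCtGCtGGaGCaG
DEK: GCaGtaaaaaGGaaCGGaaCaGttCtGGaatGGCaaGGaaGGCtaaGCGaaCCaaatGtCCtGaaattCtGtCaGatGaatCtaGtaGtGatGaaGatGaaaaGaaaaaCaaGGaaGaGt

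FASN had a log2 fold change of 0.91 (SE 0.0364) and DEK one of -0.51 (SE 0.0297). After each library's trend on GC content and exon length was removed, these became 0.36 and -0.24, both still called in the limma fit. This corrected fit called 2442 of the 13882 genes (17.6%), 1177 higher (8.48%) and 1265 lower (9.11%), where the uncorrected fit had called 7340 of the same genes (52.9%). Of those 7340, 1682 were called in the same direction, 153 in the opposite direction and 5505 no longer. Past 2-fold, 65 genes (0.468%) were called after correction. A corrected value is relative to genes of like GC content, and most results below are given both as counted and corrected.

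**Figure D1:**
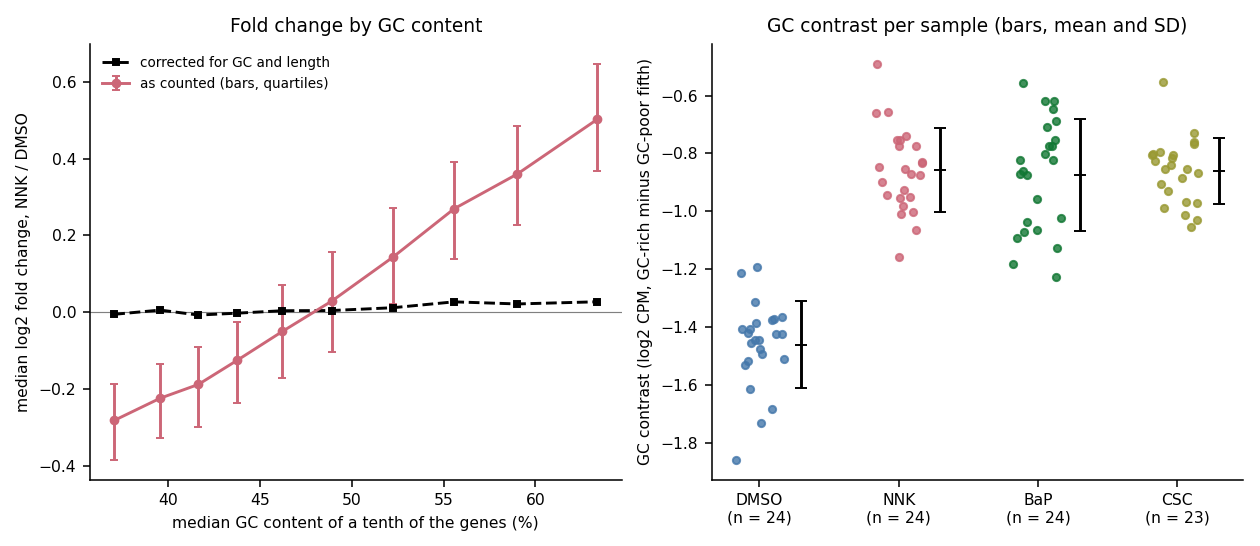
Left, median log2 fold change (NNK minus DMSO) of tested genes in 10 classes of equal size by exon GC content in percent, as counted (with quartiles) and after correction for GC content and length. Right, GC contrast of each library (log2 CPM, richest minus poorest 20% of genes) by treatment, with the mean and SD. The medians as counted climb from -0.28 to 0.50 and the corrected ones stay near 0, while the 24 NNK libraries lie above the 24 DMSO libraries.

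CYP1A1 had the largest rise of any gene tested. This target of AhR, a P450 that oxidizes polycyclic hydrocarbons (chr15:75011883-75017877, GRCh37 as for all gene positions below unless another build is named), stood at 0 CPM in the lowest DMSO library, 7.55 CPM at the median and 18.2 CPM in the highest. In NNK it ran from 32.6 CPM through a median of 52.4 CPM to 111 CPM, so every NNK library lay above every DMSO library. Its log2 fold change was 2.91 (SE 0.149, adjusted p = 2.83e-32 in limma), a 7.5-fold rise (95% interval 6.13 to 9.18), and 2.78 after correction. CYP1B1, its relative (chr2:38294116-38337044), ran from 42.9 through 68 to 115 CPM in DMSO and from 120 through 183 to 430 CPM in NNK. These groups did not overlap either, and its log2 fold change was 1.59 (SE 0.0551, adjusted p = 3.61e-45 in limma), 1.68 after correction.

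Only 7 of the 14387 genes (0.0487%) had 24 NNK values that all lay above the 24 DMSO values, and none had all of them below. Beside CYP1A1, CYP1B1 and FOS these were AGRN, PLXNB2, TRIM28 and SBF1, named after their values were seen. Those 4 are GC-rich (62.5% to 65.8%), and their log2 fold changes of 0.49 to 0.67 came to 0.02 to 0.14 after correction, where only SBF1 was still called. The 3 others kept corrected values of 1.68 to 2.78.

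AhR binds DNA with ARNT at a core spelled GCGTG, or CACGC on the other strand. The 250 bases upstream of the start of CYP1A1, AHRR and TIPARP are shown because these genes rose, with each core in capitals (RefSeq, GRCh38.p14, 5′ to 3′ on the gene's strand). Where a gene had several listed starts, the window with the most cores was picked. The CYP1A1 window (chr15:74725529-74725778, minus strand) holds 1 core, 57 bases before the start. That of AHRR (chr5:322360-322609, plus strand) holds 2, at 247 and 42 bases, and that of TIPARP (chr3:156674340-156674589, plus strand) holds 2, at 208 and 142 bases.
CYP1A1: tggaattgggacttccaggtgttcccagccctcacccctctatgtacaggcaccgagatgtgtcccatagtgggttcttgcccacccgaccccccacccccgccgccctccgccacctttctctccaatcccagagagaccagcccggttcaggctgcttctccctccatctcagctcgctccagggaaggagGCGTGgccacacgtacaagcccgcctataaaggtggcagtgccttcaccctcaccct
AHRR: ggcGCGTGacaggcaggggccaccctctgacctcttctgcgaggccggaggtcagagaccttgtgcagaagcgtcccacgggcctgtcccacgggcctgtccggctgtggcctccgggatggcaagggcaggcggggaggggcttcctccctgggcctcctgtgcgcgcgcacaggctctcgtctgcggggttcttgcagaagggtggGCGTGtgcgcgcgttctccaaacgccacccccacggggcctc
TIPARP: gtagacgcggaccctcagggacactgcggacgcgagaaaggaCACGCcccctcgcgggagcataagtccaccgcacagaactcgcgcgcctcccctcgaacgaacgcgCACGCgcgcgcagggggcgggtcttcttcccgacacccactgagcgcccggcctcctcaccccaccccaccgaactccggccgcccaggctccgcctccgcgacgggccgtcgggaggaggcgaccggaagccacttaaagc

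The core is short, and 32.2% of 35116 human promoter windows of that length hold at least 1 (10.2% at least 2), so a match is only a description of these letters. Both listed starts of AHRR and 1 of 3 of TIPARP had a core, and the single windows listed for NQO1 and CYP1A2 had none. No window was available for CYP1B1 or ALDH3A1, which also rose.

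All 6 tested AhR targets of a list of 7 were called higher, before and after correction, where 25.9% of all tested genes were higher (8.48% corrected). Their median log2 fold change was 1.36 (1.09 corrected), against 0.00 over all genes. AHRR rose by 1.65 (SE 0.218; 1.36 corrected) from few reads, 0 to 10 per DMSO library and 1 to 19 per NNK library. TIPARP, an ADP-ribosyltransferase that curbs AhR, ran from 79.6 through 106 to 175 CPM in DMSO and from 99.3 through 186 to 255 CPM in NNK, a log2 fold change of 0.72 (SE 0.0493; 0.82 corrected). ALDH3A1, an aldehyde dehydrogenase, rose 2.18-fold (95% interval 1.81 to 2.62; log2 fold change 0.74 when corrected), and the quinone reductase NQO1 by 0.38 (SE 0.0458), or 0.51 corrected. TIPARP and NQO1 overlapped between the groups, yet both were higher on average in all 8 lines. CYP1A2, the seventh, had 11 reads in the 48 libraries and was not tested.

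Of the P450s listed for NNK activation, 3 of 10 could be tested. CYP1A1 and CYP1B1 rose and CYP3A5 had a log2 fold change of -0.28 (SE 0.218, adjusted p = 0.29 in limma; -0.08 corrected). The enzymes best known for NNK hydroxylation were close to undetected over all 48 libraries together, CYP2A6 with 8 reads, CYP2A13 with 0, CYP2B6 with 1, CYP2E1 with 4 and CYP3A4 with 16. The floor of 3 reads over all libraries of a treatment is 0.117 CPM in DMSO and 0.146 CPM in NNK, and no change in these genes could be detected at this depth.

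Of 15 genes listed for carbonyl reduction and glucuronidation 7 were tested, all of them reductases. CBR4 alone was called, lower by 0.43 (SE 0.079), where 25.8% of all genes were lower. After correction CBR4 had -0.16 and none of the 7 was called, where 17.6% of all genes were. CBR1, the main cytosolic carbonyl reductase, ran from 38.7 through 53.7 to 73 CPM in DMSO and from 31.8 through 56.8 to 81.2 CPM in NNK. Its log2 fold change was 0.07 (SE 0.0664; -0.03 corrected). CBR3, AKR1B10, AKR1C1, AKR1C2 and AKR1C3 had values from 0.05 to 0.51, none called; the AKR1C genes are near-identical copies and reads may be split between them. AKR1C1 was called, at 0.62, when the third DMSO library of PIK3CA was left out. HSD11B1 had 11 reads and UGT1A4 had 29, and neither was tested. UGT2B7, UGT2B10 and UGT2B17, which glucuronidate NNAL or its relatives, had none.

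**Figure D2:**
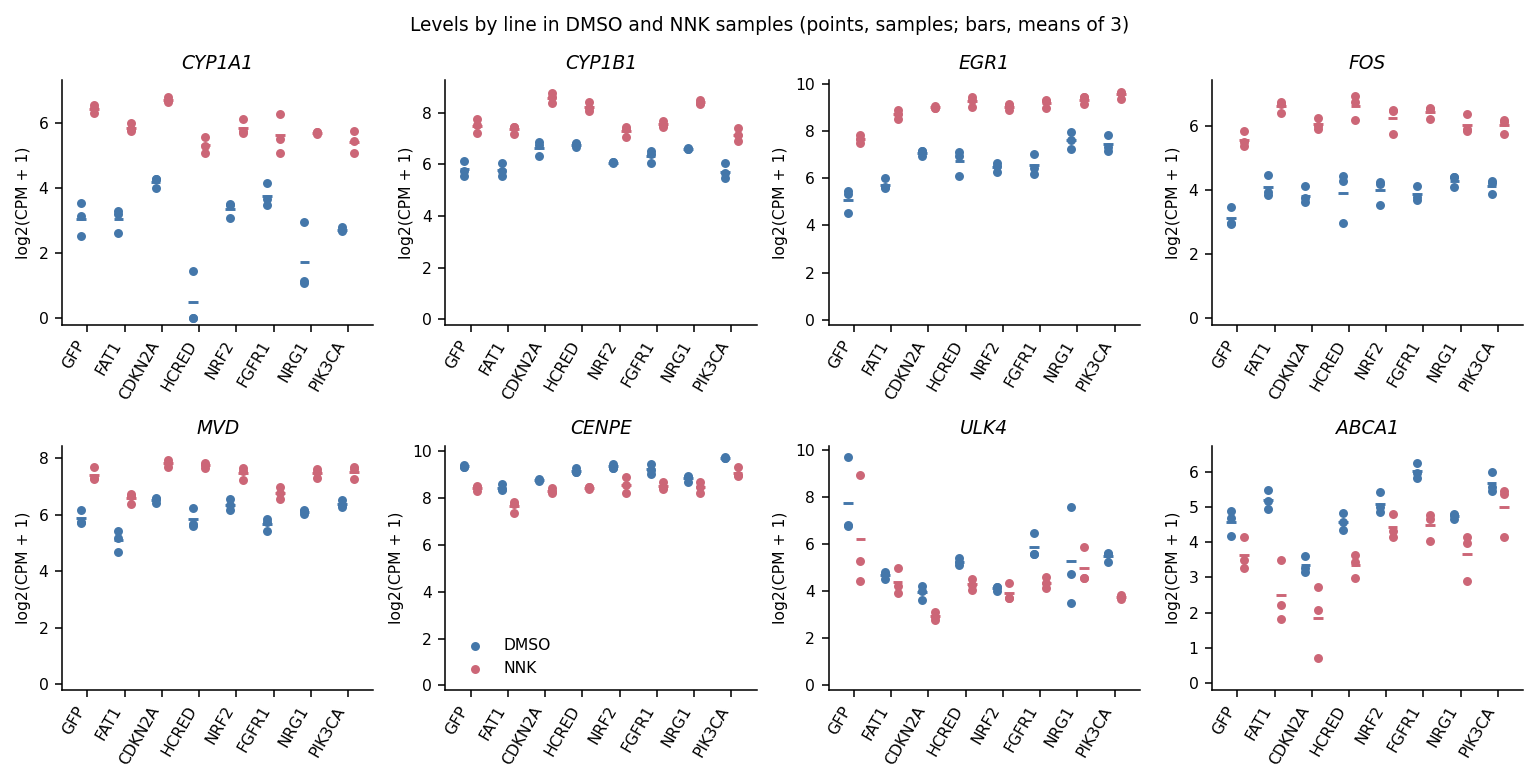
Level of 8 genes, as log2 of TMM-scaled CPM plus 1, in each library by line, for DMSO and NNK. Each point is 1 library, with 3 per line and treatment. NNK points lie above DMSO points in every line for CYP1A1, CYP1B1, EGR1, FOS and MVD and below for CENPE and ABCA1, and the ULK4 libraries of GFP and NRG1 lie far apart within a treatment.

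Immediate early genes, which growth factors and stress switch on within minutes through MAP kinases, rose as a group. Of 20 tested, 19 were called higher and none lower, where 25.9% of all genes were higher, and 18 were higher after correction (8.48% of all genes), with a median log2 fold change of 0.70 (0.58 corrected). EGR1, a zinc finger transcription factor (chr5:137801168-137804992), ran from 22.1 through 110 to 246 CPM in DMSO and from 177 through 537 to 798 CPM in NNK. In 21 of 24 NNK libraries it exceeded every DMSO library, and its log2 fold change was 2.30 (SE 0.0655, adjusted p = 2.77e-52 in limma; 2.08 corrected). FOS, a subunit of AP-1, ran from 6.61 through 15.1 to 21.1 CPM in DMSO and from 40.5 through 72.6 to 119 CPM in NNK. The groups did not overlap, and the log2 fold change was 2.33 (SE 0.102; 2.16 corrected).

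The promoter of EGR1 is printed because this gene rose in all 8 lines and its control by serum response factor at CArG boxes is well known. The 250 bases before its start (RefSeq, GRCh38.p14, chr5:138465229-138465478, plus strand) hold 2 CArG boxes, in capitals, at 105 and 83 bases. Such a box was found in 1.16% of the 35116 windows on either strand, and 2 or more in 0.0313%.
EGR1: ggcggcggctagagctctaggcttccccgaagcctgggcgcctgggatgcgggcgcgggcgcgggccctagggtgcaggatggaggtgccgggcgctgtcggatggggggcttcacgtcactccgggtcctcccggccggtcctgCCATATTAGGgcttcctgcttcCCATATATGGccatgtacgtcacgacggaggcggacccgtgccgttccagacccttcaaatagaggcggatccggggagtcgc

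Of the other immediate early genes, DUSP1, the phosphatase that turns off MAP kinases, rose from a median of 110 CPM (range 38.5 to 139) to one of 261 CPM (range 85.8 to 347). That is a log2 fold change of 1.31 (SE 0.051; 1.11 corrected), and 22 of 24 NNK libraries exceeded every DMSO library. FOSL1 rose by 1.07 and IER2 by 1.02, and these were 0.77 and 0.62 after correction. MYC rose by 0.71 (SE 0.0642) and kept 0.59. JUND, with 69.9% GC, had 0.83 as counted and 0.19 corrected, both called. Of genes not on the list, ZFP36, which destabilizes cytokine mRNAs, rose 2.0-fold (log2 fold change 0.72 corrected) and the circadian repressor BHLHE40 2.01-fold (0.94 corrected).

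Genes of cholesterol and fatty acid synthesis, most of them targets of the SREBP factors, rose as well. Of 26 tested, 23 were called higher (25.9% of all genes) and 1 lower, against 24 (8.48% of all genes) and 1 after correction, and the median log2 fold change was 0.43 (0.37 corrected). MVD, mevalonate diphosphate decarboxylase (chr16:88718343-88729569), ran from 24.6 through 69.7 to 96.6 CPM in DMSO and from 81.7 through 183 to 245 CPM in NNK. In 22 of 24 NNK libraries it exceeded every DMSO library, a log2 fold change of 1.35 (SE 0.0583, adjusted p = 6.96e-38 in limma; 0.89 corrected). Lanosterol synthase, LSS, ran from 98.2 through 131 to 249 CPM in DMSO and from 175 through 270 to 536 CPM in NNK, a rise of 1.05 (SE 0.0456; 0.77 corrected). The sterol reductase TM7SF2, which is not on the list, rose by 1.30 (SE 0.0878; 0.85 corrected).

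Members that rose were found at both ends of the GC range. HMGCS1, HMG-CoA synthase, has 40.3% GC and rose by 0.55 (SE 0.0386), or 0.76 corrected. MSMO1, a sterol oxidase, at 38.9% rose by 0.41, or 0.68. At the other end FASN at 65.2% rose by 0.91 and kept 0.36. DHCR7, the last enzyme of the pathway, rose by 0.90 (0.63) and ATP citrate lyase, ACLY, by 0.52 (0.39).

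The regulators SREBF2 and SREBF1 and the carrier STARD4 gave differing values. SREBF2, which drives cholesterol genes, rose by 0.46 (0.15 corrected). SREBF1, which drives fatty acid genes, was 0.17 as counted and -0.27 corrected, both called, and STARD4, a sterol carrier and the 1 member called lower, was -0.15 as counted and 0.17 corrected. ABCA1, which exports cholesterol and is induced by LXR (chr9:107543287-107690436), is not on the list and fell. It ran from 7.91 through 28.6 to 74.9 CPM in DMSO and from 0.648 through 13.1 to 42.8 CPM in NNK, a log2 fold change of -1.09 (SE 0.131, adjusted p = 1.03e-11 in limma; -1.04 corrected). In each of the 8 lines its 3 NNK libraries lay below its 3 DMSO libraries.

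Secreted factors were among the other rises. CTGF, a matricellular protein and target of YAP, ran from 0.747 through 10.9 to 39.9 CPM in DMSO and from 5.12 through 28 to 84.5 CPM in NNK. The ranges overlapped, but within every line the 3 NNK libraries lay above the 3 DMSO libraries, with a log2 fold change of 1.37 (SE 0.133; 1.30 corrected). CYR61 rose by 0.78 (0.78 corrected) and endothelin 1, EDN1, by 1.30 (1.43 corrected), from medians of 5.31 to 11.8 CPM. The YAP list as a whole did not move one way: 6 of 14 were higher and 2 lower (25.9% and 25.8% of all genes), with a median of 0.02.

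Interleukin 1 alpha, IL1A, has 38.7% GC and rose by 0.89 (SE 0.0857), or 1.17 corrected. The chemokine CCL20 rose by 0.90 (SE 0.271) from at most 7 reads per DMSO library (1.27 corrected), and was not called without replicate number 2 (0.75, adjusted p = 0.0601 in limma) or without NRG1 (0.65, adjusted p = 0.052). Of 13 tested genes of the IL-1, chemokine and NF-kB list 5 were higher and 1, BIRC3, was lower (4 and 1 corrected). Of all genes 25.9% were higher and 25.8% lower (8.48% and 9.11% corrected).

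The rest of the genes past 2-fold were mostly GC-rich and moved less when corrected. FOXQ1, a forkhead factor, rose by 1.19 (0.73 corrected), MLXIPL, the glucose-sensing factor ChREBP, by 1.17 (0.73), and the deacetylase HDAC10 by 1.04 (0.52). The actin bundler ESPN rose by 1.05 (0.38). ZNF628, at 70.8% GC, rose by 1.10 as counted and had 0.40 after correction, where it was not called (adjusted p = 0.0568 in limma).

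Among coding genes that fell past 2-fold, ULK4, a kinase-like gene (chr3:41288090-42003622), varied widely within some lines. GFP had 113, 115 and 1047 reads in DMSO and 29, 11 and 166 in NNK, whereas HCRED had 39, 29 and 38 in DMSO and 11, 16 and 8 in NNK. Its log2 fold change was -1.30 (SE 0.262, and -1.20 corrected), with full separation in 4 lines. The replicate with most reads had the same number in both treatments in 4 of 8 lines. These include FAT1, where replicates 1 and 2 tied at 29 reads in DMSO. The reads were not scaled to depth, and in PIK3CA that replicate was also the deepest library in both treatments. Replicate 3 of GFP also had most reads in BaP (261) and CSC (685), as had replicate 3 of NRG1 (1310 and 62). Over all genes, libraries with the same number deviated together only weakly (correlations of -0.022 to 0.0473). What the numbers stand for in these cultures is not given in the sources used here.

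Among noncoding genes LINC01355 ran from 9.12 through 18.2 to 32.5 CPM in DMSO and from 0 through 5.58 to 14.1 CPM in NNK. In 22 of 24 NNK libraries it lay below every DMSO library, a log2 fold change of -1.62 (SE 0.169; -1.33 corrected). LOC389831, whose sequence was not matched, fell by 1.60 (SE 0.166) and was below all DMSO libraries in 21 NNK libraries. SNORD79 fell by 1.18 (SE 0.17); RefSeq and the annotation used for GC content place this name on different chromosomes, so no corrected value is given. MALAT1, an abundant nuclear RNA, had -0.66 (-0.51 corrected), whereas NEAT1, the scaffold of paraspeckles, rose by 0.46 (0.55 corrected).

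Mitotic genes were lower. Of 30 tested, 25 were called lower and none higher, where 25.8% of all genes were lower, and after correction 22 were lower and none higher (9.11% of all genes). The median log2 fold change was -0.29 as counted and -0.19 corrected. CENPE, a centromere kinesin with 34.8% GC, ran from 327 through 564 to 851 CPM in DMSO and from 162 through 354 to 632 CPM in NNK, a change of -0.66 (SE 0.0379; -0.36 corrected). Topoisomerase TOP2A had -0.51 (-0.26 corrected) and CENPF -0.50 (-0.31). The proliferation antigen MKI67, with 48.2% GC, had -0.23 (SE 0.0202) as counted and -0.27 corrected. PLK1, at 57.1% GC, was 0.11 and not called as counted, and -0.18 and called when corrected; without any one of 3 libraries (DMSO 1 of CDKN2A, DMSO 3 of NRG1, NNK 2 of NRG1) it was called higher, at 0.13. DNA replication genes were split, 8 higher and 12 lower of 28 (2 and 6 corrected), where 25.9% and 25.8% of all genes were (8.48% and 9.11% corrected).

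Heat shock chaperones were also lower, 11 of 15 tested (25.8% of all genes), with 3 higher and a median of -0.34. After correction 11 were lower (9.11% of all genes) and none higher, with a median of -0.19. HSP90AA1, the inducible HSP90, had -0.34 (SE 0.0187; -0.27 corrected), the mitochondrial chaperonin HSPD1 -0.40 (-0.24), HSPA4 -0.37 (-0.19) and HSPH1 -0.44 (-0.19). The 3 called higher as counted were HSPB1 (0.38), BAG3 (0.14) and DNAJB1 (0.10), and they had -0.07, -0.11 and -0.17 after correction. DNAJB1 was not called without the third NNK library of CDKN2A (0.08, adjusted p = 0.0596 in limma) or the second of PIK3CA (0.09, adjusted p = 0.0507). It also lost its call without replicate number 2 or 3, or without the line GFP, NRF2, FGFR1 or PIK3CA. BAG3 lost its call without replicate number 3, without the line FAT1 or with log2 depth as a covariate.

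Of 20 tested targets of p53, a main response to DNA damage, 10 were higher and 3 lower as counted, where 25.9% and 25.8% of all genes were. After correction 3 were higher and 1 lower, a share near that of all genes (17.6% called). CDKN1A, the cell cycle inhibitor p21, ran from 87.6 through 140 to 242 CPM in DMSO and from 119 through 227 to 434 CPM in NNK, with 0.69 (SE 0.0465; 0.40 corrected). GDF15 rose by 0.96 (SE 0.202; 0.62 corrected). MDM2, with 39.5% GC, was -0.08 and not called as counted and 0.15 and called corrected, and without the third NNK library of CDKN2A it was called at -0.09. FDXR (0.55) and PHLDA3 (0.36) were not called when corrected, and BTG2 had -0.44 (-0.50 corrected).

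Of 30 tested genes of DNA adduct repair 7 were higher and 11 lower (2 and 2 corrected), where 25.9% and 25.8% of all genes were (8.48% and 9.11% corrected). MGMT ran from 6.61 through 12.5 to 29 CPM in DMSO and from 7.58 through 16.9 to 29.2 CPM in NNK. Its log2 fold change of 0.37 (SE 0.125, adjusted p = 0.0103 in limma) was 0.17 and not called after correction (adjusted p = 0.377). As counted, MGMT was also not called without replicate number 1 or 2, or without the line FGFR1 or PIK3CA. The excision nuclease ERCC4 had -0.39 (-0.24 corrected) and was still called. REV3L, of translesion polymerase zeta, had -0.31 and lost its call (-0.10).

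Targets of NRF2, the factor for oxidative and electrophile stress, rose in part. As counted 10 of 25 were higher (25.9% of all genes) and 2 lower, and after correction 13 were higher (8.48% of all genes) and none lower, with medians of 0.11 and 0.14. Ferritin light chain, FTL, ran from 139 through 264 to 652 CPM in DMSO and from 220 through 402 to 955 CPM in NNK, a change of 0.58 (SE 0.0306; 0.42 corrected), and ferritin heavy chain, FTH1, had 0.26 (0.25). The pentose phosphate enzymes PGD (0.41) and TKT (0.40) rose, with 0.27 and 0.08 after correction.

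Of 20 tested interferon-stimulated genes 9 were lower and 3 higher, where 25.8% and 25.9% of all genes were. After correction 3 were lower and none higher, near the 9.11% of all genes that were lower. IFIT1, which binds foreign RNA, ran from 1.89 through 14.4 to 47.4 CPM in DMSO and from 0 through 6.44 to 29.1 CPM in NNK, a change of -0.88 (SE 0.14; -0.70 corrected). The RNA sensor DDX58 had -0.45 (-0.27). IRF7, at 67.2% GC, had 0.81 as counted and 0.25 without a call corrected. Of 9 listed nicotinic and beta-adrenergic receptor genes, a class that NNK is known to bind, 5 were tested. CHRNA7, CHRNB4, CHRNA9 and ADRB1 had 3, 10, 36 and 41 reads over the 48 libraries and could not be tested. CHRNA5 alone was called as counted (-0.20), and CHRNA3 alone when corrected (-0.75), from a mean of 1.77 reads per library. Of all genes 25.8% were lower as counted and 9.11% corrected. In edgeR 2 of the 5 were called lower, and with the replicate number as a block 0 were.

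**Figure D3:**
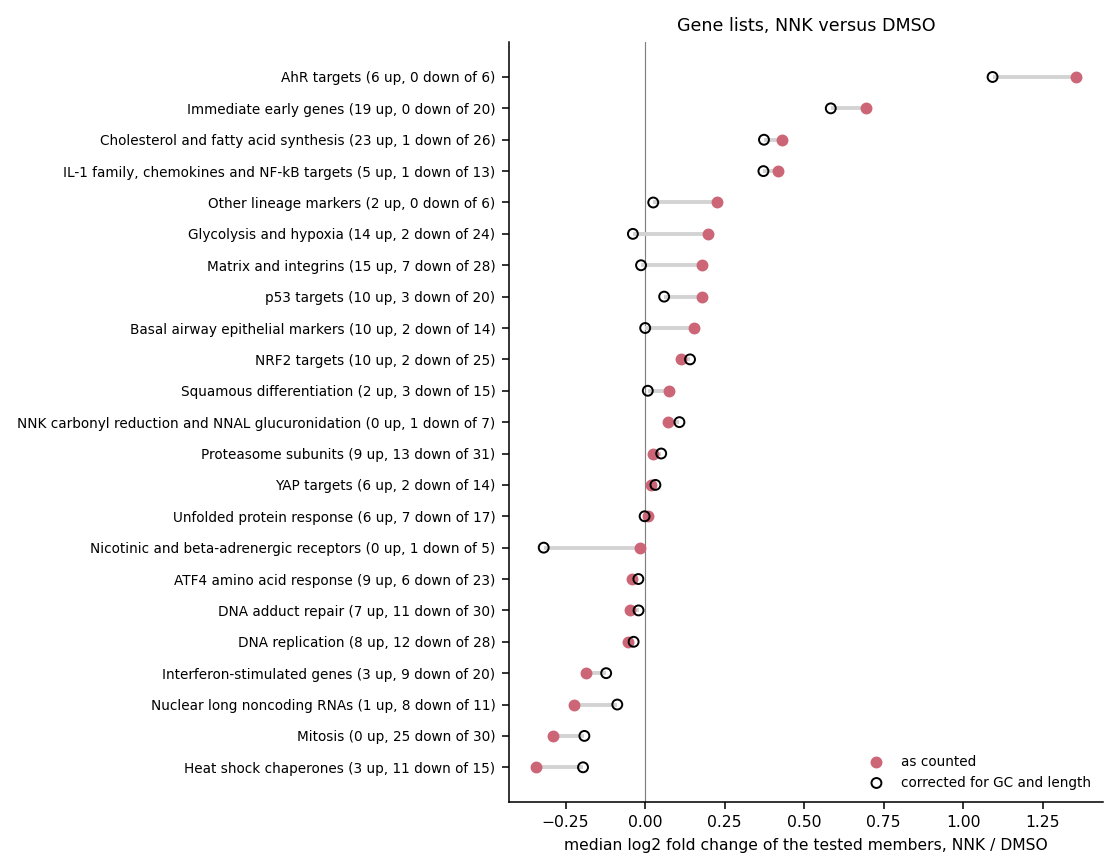
Median log2 fold change (NNK minus DMSO) of each gene list with at least 5 tested members, as counted and after correction for GC content and length. AhR targets stand highest (1.36 and 1.09), followed by immediate early genes (0.70 and 0.58), and mitotic genes (-0.29 and -0.19) and heat shock chaperones (-0.34 and -0.19) lie below 0.

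Zinc finger, small nucleolar RNA, keratin and collagen genes each had fewer calls after correction, as did all tested genes together. Over all tested genes 25.9% were higher and 25.8% lower as counted, and 8.48% and 9.11% corrected. Of 472 ZNF zinc finger genes 66 were higher and 200 lower, median -0.20, and after correction 9 were higher and 65 lower, median -0.08. ZNF141, with 38.7% GC, had -0.81 (-0.59 corrected), and ZNF316, with 62.6%, had 0.76 (0.29). Small nucleolar RNA genes numbered 8 higher and 63 lower of 213, median -0.27, and 11 and 13 of 169 after correction, median 0.04. The correction also removed a trend on exon length, which can take with it a shift common to such short genes (median 114 bases). Many of these names have several genomic copies, so their GC content is uncertain. Cytosolic ribosomal protein genes were 24 higher and 28 lower of 82, and RPS24 had -0.41 (-0.36 corrected). Keratins (9 higher and 1 lower of 18) and collagen chains (13 and 2 of 25) were 2 and 4, and 5 and 3, after correction. Basal airway markers were 10 higher and 2 lower of 14 as counted and 4 and 4 corrected.

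A test of whether the NNK effect differed between the 8 lines, with 3 samples per line and treatment, called 25 genes (0.174%), 14 after correction (0.101%) and 66 with the replicate number as a block. FASN had the smallest p of the test (adjusted p = 1.23e-06 in limma, 0.00108 corrected), with log2 fold changes from 0.61 (SE 0.05) in CDKN2A to 1.34 (SE 0.08) in GFP. The GFP value became 0.51 and the CDKN2A value 0.20 after correction, where the extremes were 0.15 in NRF2 and 0.61 in FAT1. GFP was also the line with the largest difference in GC contrast (0.822), and CDKN2A had one of the smallest (0.487). NRG1 had the smallest (0.447), with a FASN change of 0.90 as counted.

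CYP1A1 differed between lines as well (adjusted p = 0.00185 in limma, 0.00223 corrected). Its lowest fold was in FGFR1, with 40 DMSO reads summed over 3 libraries and 133 NNK reads, a ratio of 4.4 per counted read (95% counting interval 3.07 to 6.43). Its highest was in HCRED, which had 2 DMSO reads and 71 NNK reads, a ratio of 55.1 with a 95% counting interval of 14.7 to 463. The ratios of the other lines lay between 6.06 in CDKN2A and 14.2 in NRG1. The DMSO level itself differed between lines, 17.1 ± 1.9 CPM in CDKN2A against 0.574 ± 0.99 CPM in HCRED (SD, n = 3).

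TXNIP, an inhibitor of thioredoxin (chr1:145438490-145442635), was not called on average (-0.07) but moved in opposite directions, from -0.68 (SE 0.11) in FAT1 to 0.44 (SE 0.15) in PIK3CA. In FAT1 it was 401 ± 72 CPM in DMSO and 250 ± 21 CPM in NNK, and in PIK3CA 86.8 ± 17 and 117 ± 5.6 CPM (SD, n = 3). TSPAN7, a tetraspanin on chromosome X, went from -1.11 (SE 0.23) in PIK3CA to 1.21 (SE 0.37) in NRF2 and had no call on average. DDIT4, an inhibitor of mTORC1, rose in GFP by 0.70 and in HCRED by 0.74, against 0.05 in CDKN2A. DEK was lower in all lines, from -0.82 in GFP to -0.27 in CDKN2A.

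**Figure D4:**
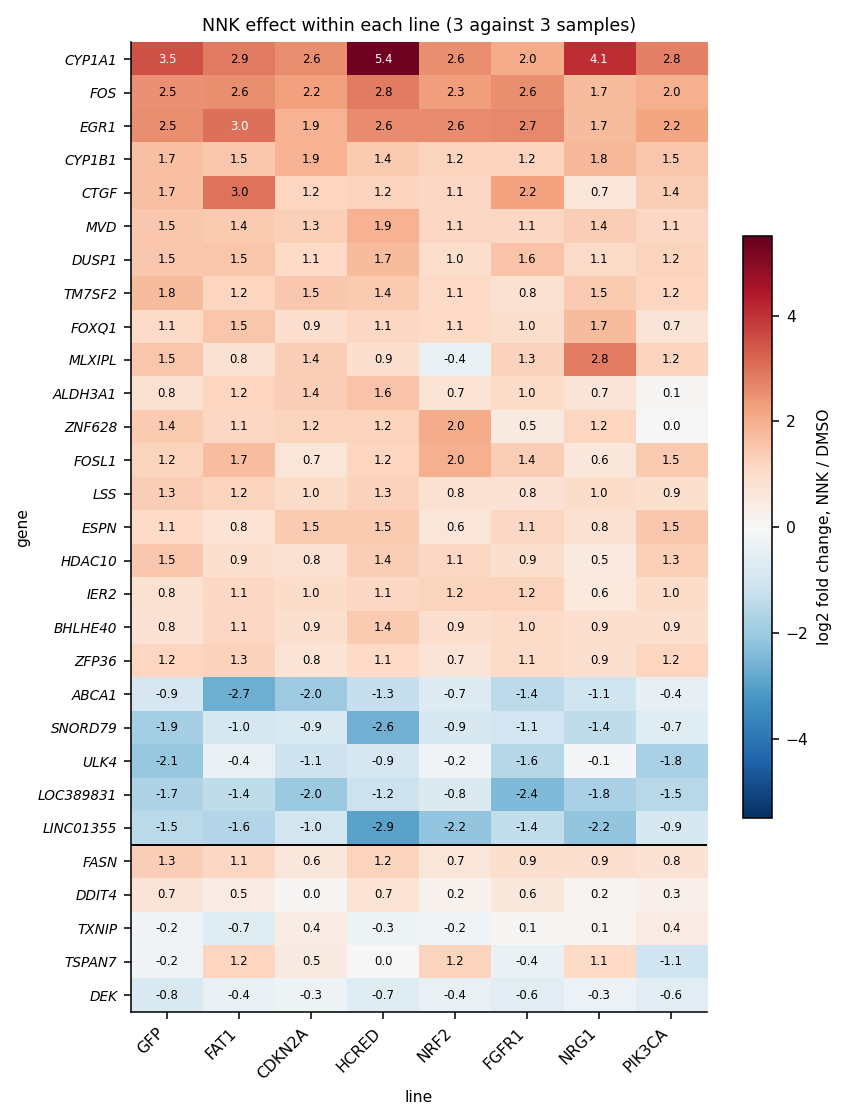
Log2 fold change (NNK minus DMSO) in each of the 8 lines for 24 genes past 2-fold and for FASN, DDIT4, TXNIP, TSPAN7 and DEK, as a colour scale from blue (lower in NNK) to red (higher). CYP1A1 is red in every line, from 2.03 in FGFR1 to 5.36 in HCRED, and TXNIP and TSPAN7 change colour between lines.

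NNK was also tested directly against the other exposures, whose GC contrast was close to its own. Against BaP 1308 of 14231 genes were called (9.19%), 757 higher in NNK (5.32%) and 551 lower (3.87%), and 31 passed 2-fold (0.218%). Against CSC it was 3094 of 14339 (21.6%), 10.6% higher and 11% lower, with 108 past 2-fold (0.753%). Correction for GC content left 1270 (9.23%) and 3043 (22%) genes; values below are as counted unless called corrected. The compounds were given at different concentrations, so these are differences between the exposures as applied, and the 3 comparisons with DMSO share the same control libraries.

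All 6 tested AhR targets were lower in NNK than in BaP (3.87% of all genes) and lower than in CSC (11%). CYP1A1 ran from 104 through 363 to 836 CPM in BaP and from 123 through 388 to 805 CPM in CSC, where NNK reached 112 CPM at most on the same scale. NNK minus BaP was -2.56 (SE 0.097, adjusted p = 4.32e-39 in limma) and NNK minus CSC -2.58 (SE 0.1, adjusted p = 2.5e-40 in limma). Against DMSO the 3 exposures gave 2.91, 5.53 and 5.54 for CYP1A1, 1.59, 3.23 and 3.37 for CYP1B1, and 0.38, 1.04 and 1.35 for NQO1, in the order NNK, BaP, CSC. NRF2 targets were likewise lower in NNK, 18 of 25 against BaP (3.87% of all genes) and 22 of 25 against CSC (11%), FTL by -0.83 (SE 0.034) and -1.14 (SE 0.032).

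Cholesterol and fatty acid genes went the other way. All 26 were higher in NNK than in BaP, where 5.32% of genes were. Against CSC 23 of 26 were higher and 2 lower (10.6% and 11% of genes). MVD ran from 39.7 through 89.8 to 169 CPM in BaP and from 29.5 through 83.1 to 134 CPM in CSC, against a median of 184 CPM in NNK on the same scale. NNK minus BaP was 0.84 (SE 0.055) and NNK minus CSC 1.07 (SE 0.054). HMGCS1 was 0.55 for NNK, -0.06 for BaP and -0.44 for CSC against DMSO. FASN was higher than in BaP by 0.64 (SE 0.045) but not different from CSC by the test (-0.02, SE 0.031, adjusted p = 0.66 in limma), a 95% interval of -0.09 to 0.04.

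Of 20 immediate early genes 3 were higher in NNK and 4 lower against BaP (5.32% and 3.87% of all genes). Against CSC 2 were higher and 13 lower (10.6% and 11% of all genes), and the counts were the same when corrected. The MAP kinase inhibitors SPRY4 (-1.20, SE 0.115) and DUSP6 (-0.99, SE 0.0953), named after their values were seen, and MYC (-0.45, SE 0.0491) were lower in NNK than in CSC. EGR1 was higher in NNK than in BaP by 0.34 (SE 0.038) and than in CSC by 0.38 (SE 0.039), and FOS by 0.33 (SE 0.075) and 0.26 (SE 0.065). EDN1 was 1.30 for NNK but 0.16 and -0.16 for BaP and CSC, a difference of 1.19 (SE 0.17) and 1.46 (SE 0.17), and CTGF was higher by 0.78 (SE 0.12) and 0.83 (SE 0.11). ABCA1 was lower than DMSO in NNK and BaP (-1.09 and -1.64) and higher in CSC (2.09), where it ran from 52.7 through 128 to 227 CPM. Mitotic genes were higher in NNK than in CSC in 21 of 30 (10.6% of all genes) and lower in none, and 7 were higher than in BaP (5.32%).

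Of 207 small nucleolar RNA genes 89 were lower in NNK than in BaP (3.87% of all genes) and none higher, with a median of -0.56. Of 210 tested against CSC 133 were lower (11% of all genes) and 1 higher, with a median of -0.69. After correction, which had values for 166 and 169 of them, 18 were lower and 4 higher than in BaP (median -0.14) and 29 lower and 8 higher than in CSC (median -0.04), so fewer were called. Of small nuclear, 7SK, 7SL, RNase P and RNase MRP RNAs 8 of 11 were lower than in BaP (3.87% of all genes). Against CSC 10 of 11 were lower (11%), and when corrected 2 and 6 of 10 were lower. Their exon GC content and length are uncertain where a name has several copies. These short RNAs are counted from rRNA-depleted total RNA, and the part of RNA recovery in their levels was not tested.

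**Figure D5:**
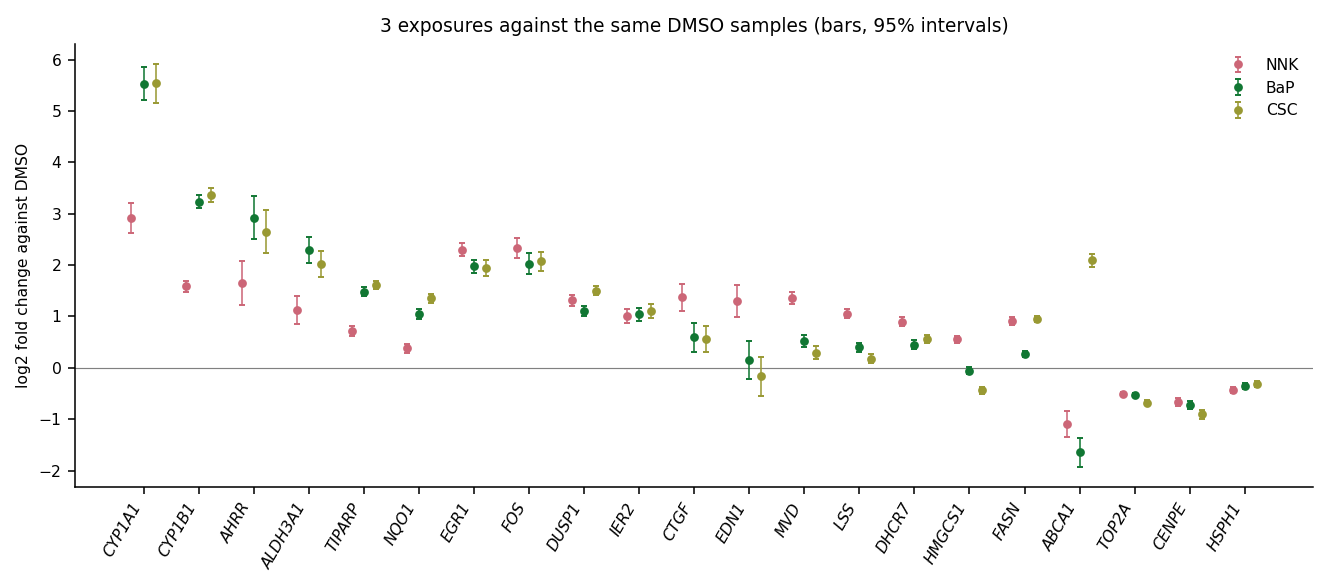
Log2 fold change against DMSO of 21 genes in NNK, BaP and CSC, with 95% intervals from the limma fits; the 3 comparisons share their DMSO libraries. CYP1A1 and CYP1B1 lie lower in NNK (2.91 and 1.59) than in BaP (5.53 and 3.23) and CSC (5.54 and 3.37), and MVD and LSS lie higher in NNK (1.35 and 1.05).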

How the data were processed

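RNA from AALE cells was made into rRNA-depleted, barcoded sparse full length (SFL) libraries that were pooled and read as single 75-base reads. The authors trimmed adapters with cutadapt 1.12, checked reads with FastQC 0.11.5, aligned them to hg19 with STAR 2.5.2b and counted RefSeq genes with featureCounts of the Subread package. The deposited values are raw counts of reads per gene, without molecular identifiers, for 27978 genes in each sample. SFL reads are not stated to be counted by strand, so overlapping antisense genes cannot be told apart.

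Genes with a mean count above 1 over the samples compared were scaled by TMM and tested in R 4.3.3 with limma 3.58.1 (voom, empirical Bayes, 2-sided, Benjamini-Hochberg adjustment over all genes tested), with line as a covariate. edgeR 4.0.16 and DESeq2 1.42.0 gave alternatives. The scripts were first tested on simulated data. The GC correction removed from each sample a smooth trend (lowess, span 0.3) of its deviations from the gene means on exon GC content and then on log2 exon length, taken from GENCODE on GRCh37, where 25063 symbols (89.6%) matched, 754 of them by an older symbol. No corrected value exists for other genes. The GC contrast was compared by a permutation test within lines. 95% intervals of folds are from the normal distribution, and those of read ratios are exact binomial and cover counting error only. Named genes were CYP1A1, all genes past 2-fold with a mean count of at least 10, up to 4 members of each list with the smallest p, the enzymes of NNK metabolism, the 5 genes with the smallest p between lines and the targeted genes; others named were chosen after their values were seen. Some genes that this rule names are not reported here. The members and gene lists were chosen with earlier results of these data known. Lists are described by counts and medians, without a test.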

Additional observations from a re-analysis of the deposited data

Results flagged for a closer look

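The effect of NNK differed between the 8 lines, by the limma test of the interaction, for 10 of the genes named here and above. The adjusted p was 1.23e-06 for FASN, 2.17e-05 for TXNIP and for DDIT4, 0.000195 for TSPAN7 and 0.000213 for DEK. It was 0.00185 for CYP1A1, 0.00372 for SLC7A5, an amino acid transporter, 0.00596 for SCD, a fatty acid desaturase, 0.00864 for HMGCS1 and 0.0261 for MYC. After correction for GC content and length all 10 were still called, with DDIT4 at 0.0427 and MYC at 0.0465. As counted, FASN and DDIT4 had their 2 largest effects in GFP and HCRED, the lines where the GC contrast differed most between NNK and DMSO (by 0.822 and 0.758). When corrected, FASN was highest in FAT1 (0.61) and DDIT4 in HCRED (0.33). The part of the GC contrast in the differing effects of these genes between lines was not tested beyond the corrected fit. For CYP1A1 the HCRED value rests on 2 reads in DMSO.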

How the results depend on the processing

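Of 98 genes described, 87 were called in limma and 66 of these under every one of up to 71 alternatives; 13 lost their call in the GC and length corrected fit alone, and 8 of those called in either fit changed sign there (SREBF1 -0.271, STARD4 0.172, PLK1 -0.177, HSPB1 -0.067, BAG3 -0.106, DNAJB1 -0.168, MDM2 0.146, PIK3CA 0.0155). The 66 include LOC389831, which had no corrected fit, and SNORD79, whose corrected fit used a sequence from another chromosome. CYP1A1 stayed between 2.78 and 3.06 and was called throughout. The number of genes called was 11531 without a filter on low counts (67.2% of them higher, with the median of all genes at 0.208) and 2442 when corrected, and it lay between 6042 and 7497 when 1 replicate number or 1 library was left out. Past 2-fold it was 198 with DESeq2, 27 at a mean count of at least 10, 65 when corrected, and 119 to 181 with 1 replicate number or library left out. Genes that differed between lines numbered 16 with DESeq2, 5 without a filter, 14 when corrected and 12 to 40 with 1 replicate number left out. Without 1 replicate number NNK against BaP gave 664 to 840 genes and NNK against CSC 1864 to 2101. The GC contrast difference lay between 0.582 and 0.693. Apart from the correction itself and the smaller number of samples or genes, the cause of these shifts was not tested. The medians of the lists described kept their sign in edgeR, DESeq2 and with its size factors.

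Replicate numbers paired the libraries only weakly. Deviations of the 24 same-numbered NNK and DMSO libraries correlated at -0.022 to 0.0473 over all genes (median 0.0141). At a mean count of at least 10 they correlated at -0.0126 to 0.069 (median 0.0299). There 16 of 24 NNK libraries correlated best with their own number, among the 3 DMSO libraries of their line. With the number as a replicate block 7420 genes were called, 105 past 2-fold, 66 between lines, 1240 against BaP and 2881 against CSC, and CYP1A1 was at 2.88.

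Few reads per library limit what can be seen for weakly expressed genes such as AHRR, CCL20 and CHRNA3 and for the undetected P450s.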
